A study of Mus musculus with 2 samples.

Results

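Ccl17 and Ccl22 encode chemokines of dendritic cells, Ccr4 encodes the receptor that both bind, and Ccr7 and Ccr8 encode receptors that dendritic and T cells use for other ligands. These 5 genes were taken by symbol from the 34290 genes of the deposited count tables, and all 5 were found. They were followed in 2 single-cell RNA libraries of tumour tissue from mice engrafted with MC38 cells, a mouse colorectal cancer line, at day 21. In 1 library the engrafted cells carried a vector control, and in the other TMEM16F, the phospholipid scramblase encoded by Ano6, had been knocked out in them. The label says that the mice were untreated. The deletion was in the engrafted cells, so the immune cells described here had no deletion by design. The sources used here state neither the strain, age and number of the mice nor whether the knockout cells were 1 clone. With 1 library for each group no test between groups was possible, so every difference below is a difference between these 2 libraries.

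CCL17 and CCL22 are made mainly by conventional and activated dendritic cells and attract CCR4-bearing cells, among them regulatory T cells (Treg) and type 2 helper cells. CCR7 binds CCL19 and CCL21 and guides mature dendritic cells, naive T cells and B cells to lymph nodes. CCR8 is known as a receptor of regulatory T cells in tumours, and its mouse ligands include CCL1 and CCL8.

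The 2 chemokine genes are neighbours. In the mm10 build, Ccl22 (ENSMUSG00000031779) lies at chr8:94745590-94751699 and Ccl17 (ENSMUSG00000031780) at chr8:94810453-94812036, both on the plus strand. The 58753 bases between them hold 1 other protein-coding gene, Cx3cl1, which encodes the chemokine fractalkine. Their promoters are shown because the levels of these adjacent genes differed to unequal extents between the libraries. Each stretch is from the 250 bases before the RefSeq start (GRCm38.p6, plus strand, 5′ to 3′). It is chr8:94810203-94810452 for Ccl17 and chr8:94745434-94745589 for Ccl22, which ends earlier because the GENCODE gene begins before the RefSeq start. Capitals mark a match to TTCNNNNGAA, the spacing bound by STAT6, searched on both strands.
Ccl17: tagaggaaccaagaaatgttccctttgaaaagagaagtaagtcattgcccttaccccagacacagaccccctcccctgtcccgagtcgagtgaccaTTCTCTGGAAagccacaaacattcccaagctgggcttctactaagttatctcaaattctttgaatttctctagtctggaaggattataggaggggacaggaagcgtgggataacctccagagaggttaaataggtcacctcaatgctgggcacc
Ccl22: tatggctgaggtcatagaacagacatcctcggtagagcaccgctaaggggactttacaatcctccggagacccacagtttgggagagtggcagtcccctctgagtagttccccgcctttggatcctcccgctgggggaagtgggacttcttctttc
The only match in the 300-base windows (250 bases before and 50 after the RefSeq start) of Ccl17, Ccl22, Ccr4 and Ccr8 was the 1 in Ccl17, beginning 154 bases before its start. The same letters occurred in 6.95% of 32851 RefSeq promoter windows of that length. A match to the NF-kB consensus, present in 8.46% of those windows, was found in none of the 4, and neither was TATAAA, present in 13.6%. These matches describe letters and show no binding. The Ccr4 window lies inside the GENCODE gene, whose 5′ end is further upstream, so it holds no sequence before that start. The reference held no window for Ccr7, which was not searched.

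The receptor genes lie elsewhere. Ccr7 (ENSMUSG00000037944) is at chr11:99144196-99155077 on the minus strand and Ccr4 (ENSMUSG00000047898) at chr9:114490316-114504916 on the minus strand. Ccr8 (ENSMUSG00000042262) is at chr9:120092114-120094906 on the plus strand, 22234 bases from Cx3cr1, the receptor gene of fractalkine. No annotated gene overlapped any of the 5.

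The files held 5253 barcodes and 46338994 UMIs (unique molecular identifiers, each counting 1 captured RNA molecule) for the vector control, and 5993 barcodes and 49777630 UMIs for the knockout. Median depth per barcode was 6236 and 6193 UMIs. After filtering, 5028 and 5688 cells were kept, 10716 together, against 10782 cells of 14 types stated by the study and 11246 barcodes in the files. The libraries shared 10 barcode sequences. Ano6 had 28.7 UMIs per 1000000 UMIs (CPM) in the vector control cells and 33.3 in the knockout cells, which checks nothing about the engrafted tumour cells. Cells were put in classes from marker UMIs, with none of the 5 genes among the markers, and 448 vector control and 552 knockout cells stayed without a class. Intervals are at the 95% level and cover counting error only, so they are too narrow where a few cells hold most of the UMIs.

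Of the 5 genes, Ccl17 differed most over all kept cells. Over all kept cells it was 58.4 CPM (56.1 to 60.7, 2510 UMIs) in the vector control and 26.3 CPM (24.9 to 27.8, 1207 UMIs) in the knockout library, a ratio of 0.451 (0.421 to 0.483). Of the 5 genes it was the only 1 at least 2-fold apart over all kept cells, where 6.21% of genes with at least 20 UMIs were that far apart in either direction. Ccl22, Ccr4, Ccr7 and Ccr8 were all within 2-fold.

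The same direction held in each dendritic class. Conventional dendritic cells (cDC) were split into cDC1-like cells, led by Xcr1 and Clec9a, cDC2-like cells, led by Cd209a and Clec10a, and cDC-like cells of neither kind. In cDC2-like cells Ccl17 was 706 CPM (662 to 752) in the vector control and 249 (223 to 277) in the knockout, a ratio of 0.353 (0.311 to 0.400), at median depths of 10330 and 8474 UMIs. In cDC1-like cells it was 328 (293 to 366) and 128 (112 to 146), a ratio of 0.391 (0.327 to 0.467). In the 26 and 29 cDC-like cells of neither kind, whose leading genes included Ccl17, Ccr7 and Tbc1d4, it was 986 and 370, a ratio of 0.376 (0.281 to 0.499). There the 5 highest cells held 85.3% and 87.8% of the Ccl17 UMIs. No dendritic class had an interval that overlapped between the libraries. Mature dendritic cells, marked by Fscn1, Cacnb3 and Il4i1, had 692 CPM (606 to 786.5) and 373 (311 to 445), a ratio of 0.540 (0.431 to 0.673). With classes from clusters that ratio was 0.383, beside 0.440 in all cDC-like cells, so the order of the gaps between classes depended on how classes were made.

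Ccl17 was the 1 of 3 measured members past 2-fold in cDC1-like cells, where 5.23% of genes were, and Ccl17 and Ccr7 were 2 of 3 in cDC2-like cells, where 5.30% were. Over all cDC-like cells the ratio was 0.336 (0.306 to 0.370), from 576.5 to 194 CPM, and Ccl17 was the only 1 of the 3 members measured there past 2-fold, where 4.34% of genes were. The 5 highest cells held 24.0% of the Ccl17 UMIs in the vector control and 39.7% in the knockout. Without those 5 cells of each library the ratio was 0.266. In cDC2-like cells, where the 5 highest cells held 35.7% and 67.0% of the Ccl17 UMIs, it was 0.182 in place of 0.353. The remaining cells thus also had less Ccl17 in the knockout. The lower ratio follows by construction from the larger share of the highest cells in the knockout, so it says nothing more about the difference.

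**Figure D1:**
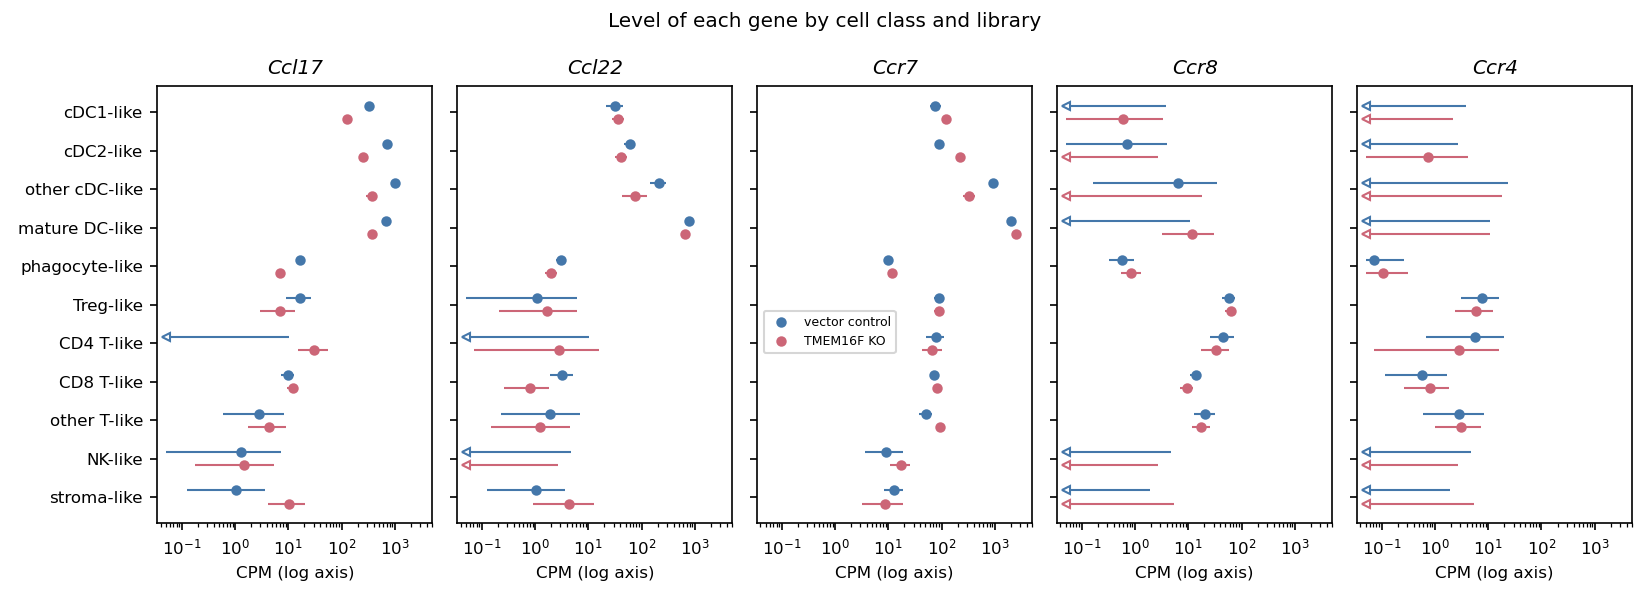
Level of each gene, in CPM on a log axis, in 11 cell classes of the vector control (blue) and TMEM16F KO (red) library. Points are summed UMIs per class in CPM, lines drawn from 0.05 CPM upwards are exact Poisson intervals at the 95% level for counting error only, and open arrowheads mark classes with 0 UMIs. Ccl17 is lower in the knockout library in all 4 dendritic classes and in phagocyte-like cells.

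Fewer cells of the class carried Ccl17 at all. It was detected in 46.7% of 227 cDC-like cells in the vector control and 25.8% of 279 in the knockout. Median depth was 8977 and 9466 UMIs in these cells. After thinning each cell to 2000 UMIs, which left out 21 and 13 shallower cells, the shares were 31.1% (24.8 to 37.9) and 16.2% (11.9 to 21.2). These pooled intervals did not overlap. In each dendritic class alone the thinned share was lower in the knockout, but the intervals overlapped. In cDC2-like cells they were 24.1 to 41.8 and 10.6 to 24.3. In NK-like cells, which should lack the gene, the thinned share was 1.04% and 0.595%, at median depths of 5723 and 5228 UMIs. Among the 106 and 72 cDC-like cells with a Ccl17 UMI the median was 5 and 4 UMIs, and 16 and 7 of them had 30 or more.

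**Figure D2:**
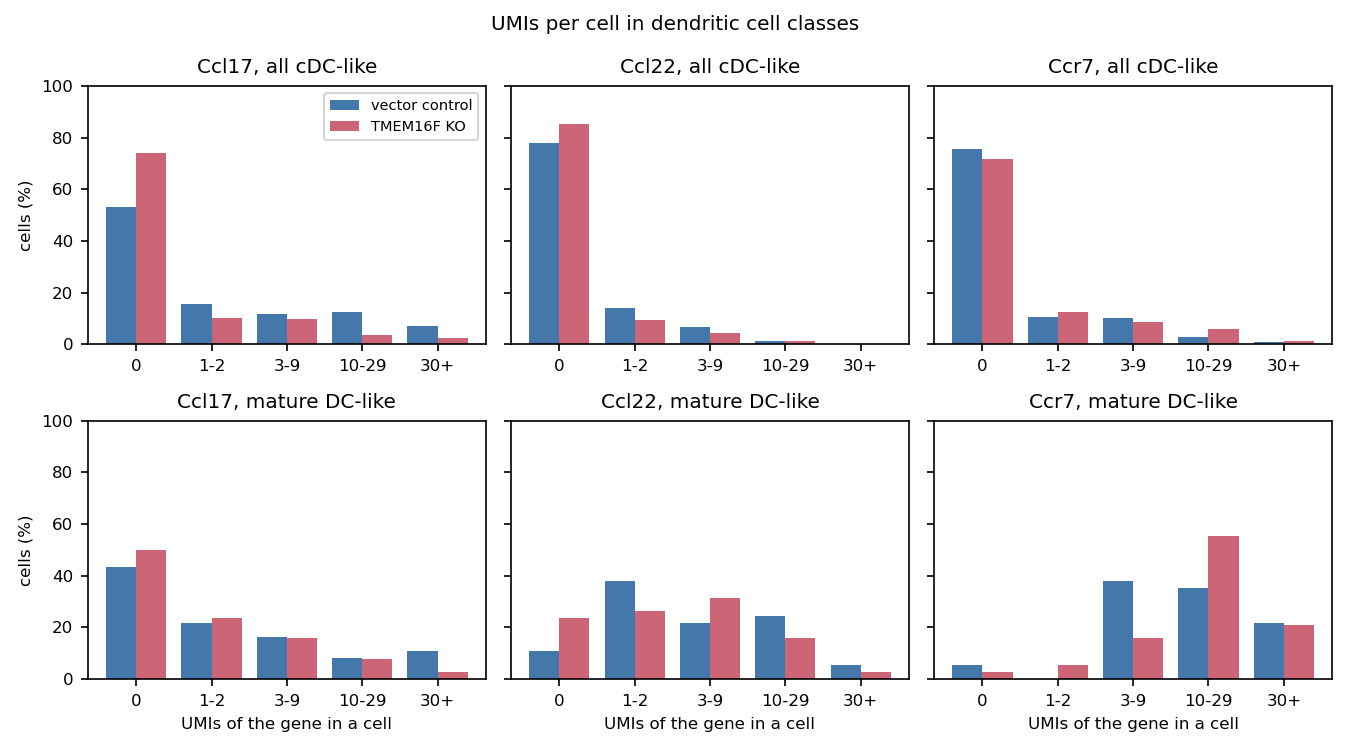
Share of cells (y axis, %) by the number of UMIs of Ccl17, Ccl22 or Ccr7 in the cell (x axis), for cDC-like cells (top row) and mature DC-like cells (bottom row) of both libraries, not thinned. Cells with 0 Ccl17 UMIs made up 53.3% of cDC-like cells in the vector control and 74.2% in the knockout, while in mature DC-like cells few had 0 Ccr7 UMIs.

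The share of dendritic cells differed little between the libraries, with a ratio of 1.06 (0.899 to 1.255), an interval that held 1. The cDC1-like cells were 1.53% and 2.09% of kept cells, and the cDC2-like cells 2.47% and 2.30%. Ccl17 was lower in cDC1-like than in cDC2-like cells in both libraries. The part of this mix in the pooled Ccl17 values was not tested. The cDC-like and mature DC-like cells together were 52.5 of every 1000 kept cells in the vector control and 55.7 in the knockout. Their mean was 6.40 Ccl17 UMIs per cell in the vector control and 2.35 in the knockout. They held 67.3% of all Ccl17 UMIs in the vector control and 61.8% in the knockout, phagocyte-like cells held 18.4% and 15.8%, and T-like cells 2.79% and 8.53%. Outside the dendritic classes Ccl17 was also lower in the knockout, with a ratio of 0.533 (0.474 to 0.598).

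**Figure D3:**
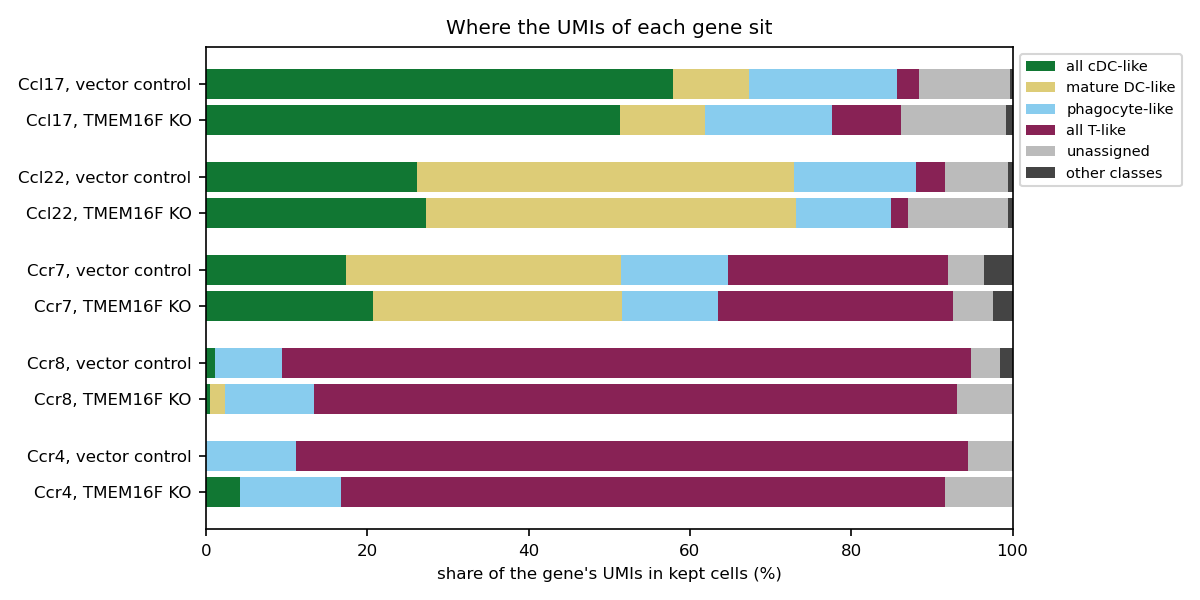
Share of the UMIs of each gene (x axis, %) that came from cDC-like, mature DC-like, phagocyte-like, T-like, unassigned and other cells in each library. Dendritic classes held most Ccl17 and Ccl22 UMIs, Ccr7 was spread over dendritic and T-like cells, and T-like cells held most Ccr8 and Ccr4 UMIs.

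Phagocyte-like cells, the macrophages and monocytes, numbered 2949 and 2894. They carried Ccl17 at 16.8 CPM (15.3 to 18.4) in the vector control and 6.83 CPM (5.90 to 7.87) in the knockout, a ratio of 0.407 (0.342 to 0.483). It was the only 1 of 4 members past 2-fold in them, where 4.71% of genes were. Few of these cells had any, 1.74% and 0.738% after thinning, and the mean over cells gave a ratio of 0.271. Summed cDC2 markers (5 genes) were also lower in these cells, at 328 and 225 CPM, as were 12 mature dendritic cell markers, at 159 and 111 CPM, with no marker at 0 in either library. Their part in the Ccl17 result was not tested.

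The phagocyte-like cells were then divided into 4 bins, of equal size over both libraries together, by their MHC class II level (H2-Aa, H2-Ab1, H2-Eb1 and Cd74, the antigen presentation genes), with common limits for both libraries. Ccl17 in the vector control was 1.37 CPM in bin 1 and 7.43, 16.4 and 37.0 CPM in bins 2, 3 and 4. In the knockout it was 2.50, 1.47, 5.30 and 15.9 CPM. The ratio was 0.198 (0.0891 to 0.397) in bin 2, 0.323 (0.216 to 0.472) in bin 3 and 0.431 (0.347 to 0.533) in bin 4, so the gap was present at matched MHC class II level in the upper 3 bins and not in bin 1, where the interval of 0.737 to 4.93 held 1. Ccl22 was highest in bin 4 of both libraries, at 7.85 and 3.80 CPM. Ccr7 did not share one direction, with 13.1 and 4.41 CPM in bin 2 and 15.2 and 23.3 CPM in bin 4.

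**Figure D4:**
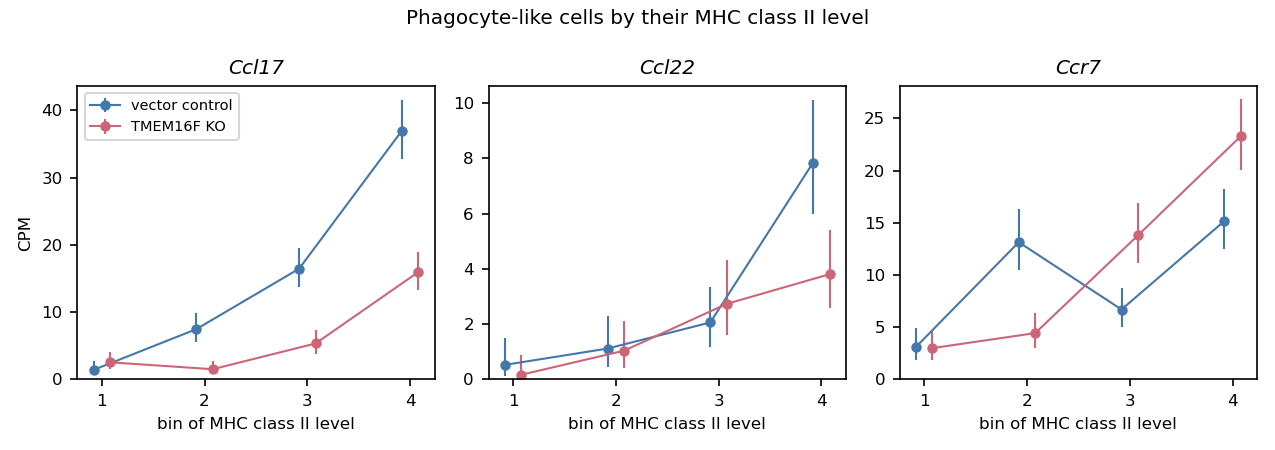
Level of Ccl17, Ccl22 and Ccr7 (y axis, CPM) in phagocyte-like cells, split into 4 bins of MHC class II level from low (1) to high (4), with Poisson intervals at the 95% level. Ccl17 in the vector control (blue) climbs to 37.0 CPM in bin 4, where the knockout (red) reaches 15.9 CPM.

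In T-like cells Ccl17 UMIs sat in very few cells. CD8 T-like cells had 52 UMIs in the vector control, 49 of them in 1 cell, and 77 in the knockout, with at most 23 in a cell. In Treg-like cells the counts were 15 and 8 UMIs, with 10 and 7 of them in 1 cell. That made Ccl17 the 1 of 3 measured members past 2-fold in Treg-like cells, where 5.81% of genes were, with an interval of the ratio of 0.154 to 1.06 that held 1.

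Ccl22 differed less and was most abundant in mature DC-like cells. Over all kept cells it was 13.04 CPM (12.0 to 14.2, 561 UMIs) in the vector control and 10.6 CPM (9.655 to 11.6, 485 UMIs) in the knockout, a ratio of 0.811 (0.717 to 0.917). Mature DC-like cells, 37 and 38 in number, held 46.7% and 46.0% of all Ccl22 UMIs. There it was 772 CPM (681 to 871) and 661 CPM (577 to 753.5), a ratio of 0.856 (0.713 to 1.03), an interval that held 1. None of the 3 members measured was past 2-fold in mature DC-like cells, where 9.47% of genes were. When classes were taken from clusters the ratio was 1.05, the mean over cells gave 0.561, and without the 5 highest cells of each library it was 0.638 (0.484 to 0.837), so its size depended on the setting.

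Ccl22 was detected in 89.2% of mature DC-like cells in the vector control and 76.3% in the knockout, and after thinning in 57.6% (39.2 to 74.5) of 33 cells and in 18 of 36. A single knockout cell held 59 of the 223 UMIs. In cDC-like cells the level was 58.3 and 41.3 CPM, a ratio of 0.708 (0.555 to 0.901), and with classes from clusters 0.782 (0.590 to 1.03), an interval that held 1. Within them, cDC2-like cells had 60.0 and 41.9 CPM, with a ratio of 0.698 (0.489 to 0.992), and cDC1-like cells had 31.6 and 36.7 CPM, with a ratio of 1.16 (0.741 to 1.85). In the cDC-like cells of neither kind it was 208.5 and 75.1 CPM, from 33 and 15 UMIs. Phagocyte-like cells had 3.095 and 2.04 CPM, a ratio of 0.659 (0.463 to 0.933), and 0.423 with a stricter lead of the class's own markers. A single vector control cell held 35 of the 85 UMIs, and without the 5 highest cells of each library the ratio was 0.761 (0.460 to 1.25), an interval that held 1. CD8 T-like cells had 17 and 5 UMIs, 10 of the former in 1 cell, and Ccl22 was the 1 of 4 measured members past 2-fold there, where 5.14% of genes were. No NK-like cell had a Ccl22 UMI in either library.

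The order of classes was not the same for the 2 chemokine genes. Ccl22 was highest in mature DC-like cells in both libraries, followed by cDC-like cells of neither kind, cDC2-like and cDC1-like cells. In the knockout the intervals of the last 3 overlapped, at 42.0 to 124, 31.6 to 54.4 and 28.1 to 47.1 CPM. Ccl17 in the vector control was highest in cDC-like cells of neither kind, followed by cDC2-like and mature DC-like cells, whose intervals overlapped, and then cDC1-like cells. In the knockout the mature DC-like cells and the cDC-like cells of neither kind were level, at 373 and 370 CPM, above the cDC2-like and cDC1-like cells.

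Within cDC-like cells Ccl22 was found more often in cells with a Ccl17 UMI than in cells without. Most Ccl17-positive cells had no Ccl22 UMI. After thinning, 21.9% (12.5 to 34.0) of Ccl17-positive cells in the vector control also had Ccl22, against 3.52% (1.15 to 8.03) of Ccl17-negative cells. In the knockout the shares were 20.9% (10.04 to 36.0) and 4.48% (2.17 to 8.09). In both libraries the intervals of Ccl17-positive and Ccl17-negative cells did not overlap. Ccr7 was found in 52.6% (28.9 to 75.5) of Ccl22-positive cells and 10.2% (6.23 to 15.4) of Ccl22-negative cells in the vector control, and in 36.8% (16.3 to 61.6) and 13.8% (9.72 to 18.7) in the knockout, where the intervals overlapped.

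**Figure D5:**
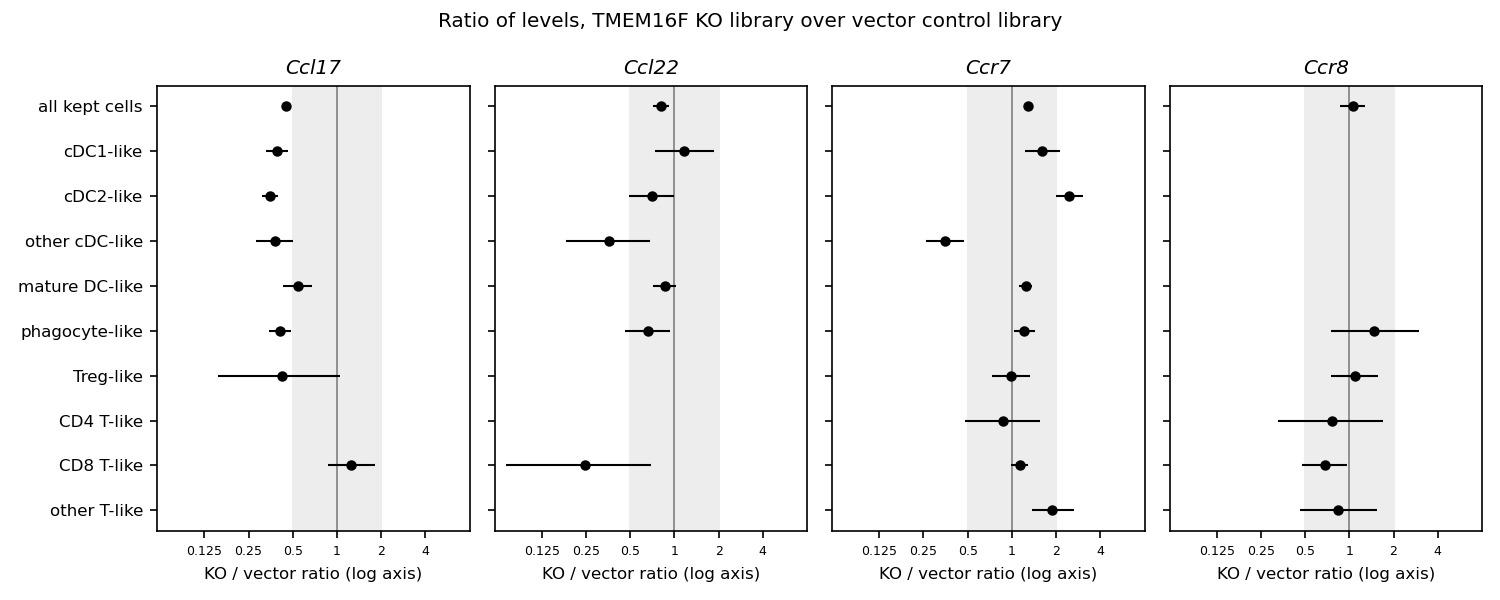
Ratio of the level in the TMEM16F KO library over the vector control library (x axis, log scale) for Ccl17, Ccl22, Ccr7 and Ccr8 in all kept cells and 9 classes. Lines are exact conditional binomial intervals at the 95% level for counting error only, the shaded band is within 2-fold, and classes with 3 or fewer UMIs in a library are left blank. All Ccl17 points in dendritic and phagocyte-like cells lie below 1, and Ccr7 lies above 1 in cDC1-like, cDC2-like and mature DC-like cells.

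Ccr7, the lymph node homing receptor, was higher in the knockout library. Over all kept cells it was 46.9 CPM (44.9 to 49.0, 2019 UMIs) in the vector control and 60.1 CPM (57.9 to 62.4, 2756 UMIs), a ratio of 1.28 (1.21 to 1.36). The cell mix differed too. T-like cells were 22.75% and 28.27% of kept cells, and phagocyte-like cells, low in Ccr7, 58.65% and 50.88%. Within all T-like cells the Ccr7 ratio was 1.18 (1.05 to 1.31). Within cDC-like and mature DC-like cells together it was 1.11 (1.02 to 1.20). The part of the cell mix in the value over all kept cells was not tested. Nearly all mature DC-like cells carried Ccr7, 94.6% and 97.4%, or 90.9% and 97.2% after thinning. Their level was 2032 CPM (1883 to 2190) in the vector control and 2519 CPM (2352 to 2694) in the knockout, a ratio of 1.24 (1.12 to 1.37). Over the alternatives run the ratio in these cells lay between 1.15 and 1.35.

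In the cDC-like classes Ccr7 differed in both directions. It was 91.1 and 224 CPM in cDC2-like cells, a ratio of 2.46 (2.00 to 3.06), while 11.1% and 15.1% of thinned cells carried it, with overlapping intervals (6.05 to 18.2 and 9.33 to 22.5). Before thinning the shares were 26.6% and 25.2%. Cells with a Ccr7 UMI had a mean of 3.82 and 9.09 UMIs, and the 5 highest held 53.2% and 50.7% of them. Ccr7 was 76.5 and 123 CPM in cDC1-like cells, a ratio of 1.60 (1.23 to 2.12). Here only 10 of 77 vector control cells had a Ccr7 UMI, and 5 of them held 84.0% of the 75 UMIs. Without the 5 highest cells of each library the ratio was 4.99 (2.74 to 9.97), which rests on the few vector control UMIs left. With a stricter lead of the class's own markers it was 1.34 (1.02 to 1.79). In the cDC-like cells of neither kind Ccr7 was lower in the knockout, at 935 and 330 CPM, a ratio of 0.353 (0.260 to 0.475). All 3 members measured were past 2-fold in that small class, where 11.9% of genes were, and all 3 were lower in the knockout. These values rested on few cells. The 5 highest cells held 75.7% and 86.4% of the Ccr7 UMIs and 75.8% and 86.7% of the Ccl22 UMIs there. Ccr7 was detected in 12 of 26 and 11 of 29 cells, and its thinned intervals overlapped (25.7 to 70.2 and 14.3 to 51.8). All cDC-like cells together had 138 and 178 CPM of Ccr7, a ratio of 1.29 (1.13 to 1.48), or 1.64 without the 5 highest cells of each library. It was 1.13 (0.982 to 1.30) with a stricter lead of the class's own markers and 1.17 (0.964 to 1.41) with classes from clusters, and both of these intervals held 1.

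T cell markers were also higher in the knockout cDC-like cells. The 12 summed T cell markers were 212 and 522 CPM there, and 292 and 939 CPM in mature DC-like cells, where 2 of the 12 were at 0 in the vector control and none in the knockout. Cycling markers were 431 and 625 CPM in cDC-like cells and 230 and 62.2 CPM in mature DC-like cells. The part of these in the Ccr7 result was not tested.

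In T-like cells Ccr7 was present in all 4 classes. CD8 T-like cells, 671 and 900 in number, had 73.1 CPM (66.0 to 80.8) and 82.7 CPM (75.7 to 90.1), a ratio of 1.13 (0.990 to 1.29). Treg-like cells had 91.2 and 89.9 CPM, a ratio of 0.985 (0.732 to 1.33), and 1.67 when classes were taken from clusters. CD4 T-like cells had 78.0 and 67.5 CPM, from 28 and 24 UMIs. The other T-like cells, led by Trdc, Tcf7 and Lef1, had 50.2 CPM (37.6 to 65.7) and 94.7 CPM (80.2 to 111), a ratio of 1.89 (1.37 to 2.63), but 1.02 with classes from clusters, and 2.86 without the 5 highest cells of each library, 1 of which held 51 of the 152 knockout UMIs. Of these 4 classes only the other T-like cells had a reported ratio whose interval left out 1, and none of the members was past 2-fold there, where 5.06% of genes were.

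Ccr7 was also found outside these classes. B-like cells, 14 and 12 in number, had 468 and 432 CPM. Phagocyte-like cells had 9.72 and 11.8 CPM, a ratio of 1.21 (1.03 to 1.43), and the thinned share was 1.32% and 1.28%. NK-like cells had 9.02 and 17.2 CPM from 7 and 23 UMIs, and stroma-like cells 12.8 and 8.73 CPM, with 23 of the 25 vector control UMIs in 1 cell.

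T-like cells held most Ccr8 UMIs, 85.4% in the vector control and 79.6% in the knockout. Over all kept cells it was 4.46 CPM (3.86 to 5.14, 192 UMIs) and 4.71 CPM (4.10 to 5.38, 216 UMIs), a ratio of 1.06 (0.865 to 1.29). T-like cells were a larger share of kept cells in the knockout. Within all T-like cells Ccr8 was 21.5 and 18.2 CPM, a ratio of 0.849 (0.681 to 1.06), an interval that held 1. It was highest in Treg-like cells, marked by Foxp3, Ikzf2 and Il2ra, at 57.6 CPM (43.1 to 75.3) and 62.5 CPM (49.0 to 78.6), a ratio of 1.09 (0.752 to 1.58). Detection in Treg-like cells was 19.8% and 21.7%, or 11.8% (7.17 to 18.1) and 12.3% (8.17 to 17.5) after thinning. No NK-like cell had a Ccr8 UMI. A difference within the interval of the Treg-like ratio was not detectable at this depth.

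CD4 T-like cells came next, at 44.6 CPM (25.5 to 72.4) and 33.8 CPM (17.4 to 59.0), overlapping the Treg-like cells. Their ratio of 0.758 (0.327 to 1.71) rested on 16 and 12 UMIs. It became 1.66 (0.322 to 10.7) without the 5 highest cells of each library, and both intervals held 1. The other T-like cells had 20.8 and 17.4 CPM, a ratio of 0.837, which became 2.29 with classes from clusters. CD8 T-like cells had 13.8 CPM (10.8 to 17.3) and 9.37 CPM (7.13 to 12.1), a ratio of 0.679 (0.474 to 0.971), from 73 and 59 UMIs, and the thinned share was 2.97% and 2.19%. The ratio was 0.756 (0.546 to 1.04) with classes from clusters and 0.763 (0.508 to 1.15) without the 5 highest cells of each library, and both of these intervals held 1. The count of Treg-like cells was 3.32% (2.84 to 3.86) of kept cells in the vector control and 4.22% (3.71 to 4.78) in the knockout. Macrophage markers in T-like cells were higher in the knockout, 1590 and 3022 CPM in Treg-like and 1303 and 2616 CPM in CD8 T-like cells, with none of the 15 markers at 0, and their part in these results was not tested.

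Ccr4, the receptor of both chemokines, was barely detected. It had 18 UMIs in the vector control and 24 in the knockout over all kept cells, 0.419 CPM (0.248 to 0.661) and 0.523 CPM (0.335 to 0.779). T-like cells held 15 and 18 of these. Treg-like cells had 7 UMIs in each library, 7.60 CPM (3.06 to 15.7) and 5.99 CPM (2.41 to 12.3), a ratio of 0.788 (0.236 to 2.63). The other T-like cells had 3 and 5 UMIs, CD8 T-like cells 3 and 5, and CD4 T-like cells 2 and 1. No mature DC-like or NK-like cell had any in either library, and 3 UMIs, the limit set for a count of 0, would be 8.84 CPM in the vector control and 8.89 CPM in the knockout mature DC-like cells. With counts this low no difference between the libraries was detectable. Ccr4 and Ccr8 UMIs were found together in 0 of 167 Treg-like cells in the vector control and 2 of 240 in the knockout.

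Other ligands and scavengers of these receptors gave a mixed picture. Ackr2 and Ackr4, which scavenge chemokines, and the Ccl21 genes had at most 2 UMIs in a library, and Ccl19 had 8 and 17 UMIs in all, mostly in stroma-like cells. Of 9 list genes measured in mature DC-like cells the knockout had more of 4 and less of 5, with a median log2 ratio of -0.18 against 0.03 for all genes. Ccl5, the most abundant of them, was 4465 and 3198 CPM there, a ratio of 0.716. Ccl2 and Ccl6 differed most, with ratios of 2.22 and 2.12 from 24 and 53 and from 28 and 59 UMIs. In cDC-like cells 7 of 11 were higher and 4 lower, with a median of 0.51 against 0.04. Ccl4 led by UMIs at 2162 and 1949 CPM, while the 2 largest ratios, Ccl1 at 10.1 and Ccl24 at 3.55, rested on single knockout cells that held 119 of 154 and 39 of 45 UMIs.

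Ccl1, a Ccr8 ligand, was found mainly in T-like cells, at 369 CPM in the vector control. CD8 T-like cells held 2296 of its UMIs in the vector control and 1343 in the knockout. In phagocyte-like cells it had 134 and 67 UMIs, a ratio of 0.491 (0.361 to 0.664), and Ccl5 had 354.5 and 729 CPM, a ratio of 2.06 (2.01 to 2.11). Ccl4, the most abundant list gene there, was 2918 and 2660 CPM, and 7 of 12 list genes were higher and 5 lower. Ccl8, the other mouse Ccr8 ligand, sat mostly in phagocyte-like cells, with 24791 UMIs in the vector control and 31059 in the knockout. In CD8 T-like cells 10 of 11 list genes were higher and 1, Ccl1, lower, with a median of 0.53 against -0.02. Of them 3 were higher and Ccl1 lower by at least 2-fold, where 5.14% of genes were that far apart. Ccl4 led there at 2492 and 2884 CPM, and Ccl6 and Ccl9, chemokines of myeloid cells, had ratios of 2.34 and 2.24. The 15 macrophage markers summed to 1303 and 2616 CPM in the same CD8 T-like cells, a ratio of 2.01, and their part in these ligand values was not tested.

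Of the other chemokine receptors, 5 were measured in mature DC-like cells, and the knockout had more of 3 and less of 2. T cell markers were 3.22 times higher in the same cells, and Cxcr6, a receptor of T cells named after its values were seen, had 0 and 22 UMIs there. The part of T cell RNA in these receptor values was not tested. Cxcr4, the CXCL12 receptor, had a ratio of 3.35 (1.73 to 7.02) from 12 and 40 UMIs, and Ccrl2, a non-signalling receptor of chemerin, was level at 147 and 145 CPM. Of 11 in cDC-like cells 8 were higher and 3 lower, with a median of 0.28 against 0.04. Ccrl2 led at 269.6 and 238 CPM. Xcr1, the cDC1 receptor, had a ratio of 2.01 (1.50 to 2.71), beside a cDC1-like share of kept cells of 1.53% and 2.09%. Xcr1 is also a marker of the class, so its level there partly follows from the class rule. Cx3cr1 had a ratio of 0.585 (0.326 to 1.04). Of 10 in phagocyte-like cells 8 were higher and 2 lower, with a median of 0.25 against 0.03. Ccrl2 led there at 275 and 351 CPM, Cx3cr1 had 91.6 and 27.4 CPM, a ratio of 0.299 (0.275 to 0.324), and Cxcr6 had 1.99 from 71 and 144 UMIs. In CD8 T-like cells all 8 with enough UMIs had a ratio above 1, with a median of 0.41 against -0.02. Ccr1 had 2.81 from 29 and 97 UMIs, Cxcr4 1.78, and Cxcr6, the most abundant, 1.06, beside the higher macrophage markers given for these cells. In Treg-like cells 3 of 9 had a higher and 6 a lower level, with a median of -0.16 against 0.01, and with Ccr2 the most abundant at 243 and 246.5 CPM, Ccr1 at a ratio of 0.772 and Ccrl2 at 0.753.

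Maturation genes of dendritic cells did not follow Ccl17. In mature DC-like cells the knockout had more of 13 and less of 13 out of 26, with a median log2 ratio of 0.02 against 0.03 for all genes. Marcksl1, a cytoskeletal regulator, led at 1199 and 1420 CPM, and Spred1 and Ebi3 had the largest ratios, 2.14 and 1.75, from 16 and 34 and from 19 and 33 UMIs. In cDC-like cells 20 of 25 were higher and 5 lower, with a median of 0.25 against 0.04. Cd83, an activation marker, was 281 and 347 CPM, a ratio of 1.24 (1.12 to 1.36), and Cd274, which encodes PD-L1, was 173 and 278 CPM, a ratio of 1.61 (1.43 to 1.80), while Il15ra had 0.559 from 31 and 22 UMIs. In cDC1-like cells 18 of 24 were higher and 6 lower, with a median of 0.34 against 0.00, Tnfrsf9 by a ratio of 4.01 (2.62 to 6.37) and Relb, an NF-kB subunit, by 1.68 (1.16 to 2.48). In cDC2-like cells 18 of 23 were higher and 5 lower, with a median of 0.26 against 0.05, Cd274 by 1.91 (1.60 to 2.29) and Stat4 by 2.25 (1.43 to 3.62). T cell markers were higher beside them, at 321.5 and 616.5 CPM in cDC1-like and 144 and 417 CPM in cDC2-like cells, and their part was not tested. In cDC-like cells, then, Ccl17 was lower in the knockout library where most measured maturation genes were higher.

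Within each library the cDC-like cells with a Ccr7 or Ccl22 UMI had higher levels of these genes. For Ccl22, 18 of 24 maturation genes were higher in cells with a UMI than in cells without in the vector control and 23 of 25 in the knockout, with median log2 ratios of 0.55 and 0.87 against -0.10 and -0.13 for all genes. For Ccr7 the counts were 18 of 24 and 21 of 25, with medians of 0.35 and 0.53 against -0.17 and -0.10. For Ccl17 they were 14 of 24 and 16 of 25, with medians of 0.06 and 0.07 against -0.05 and -0.05. Cells with a UMI were deeper, at a median of 11408.5 against 8512 UMIs for Ccl22 in the vector control and 10686 against 9274.5 in the knockout.

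Effector genes of Treg cells were described beside Ccr8. In Treg-like cells the knockout had more of 13 and less of 8 out of 21, with a median of 0.08 against 0.01. Of these genes, Tnfrsf4 and Tnfrsf18 are also markers of the Treg-like class, so their levels there partly follow from the class rule. Tnfrsf4, which encodes OX40, led at 1842 and 2327 CPM, a ratio of 1.26 (1.19 to 1.34), Tnfrsf1b had 1.33 (1.07 to 1.67) and Entpd1, which encodes CD39, 0.755 (0.559 to 1.02). Treg-like cells with a Ccr8 UMI had 1 of 20 of these genes higher than those without in the vector control and 9 of 21 in the knockout, with medians of -0.26 and -0.09 against -0.01 and 0.02 for all genes, at median depths of 7125 against 3630 and 4881.5 against 3423.5 UMIs. Of 5 type 2 genes measured in Treg-like cells 2 were higher and 3 lower, with a median of -0.03, Areg, a growth factor, at 1471 and 1377 CPM and Il1rl1, the IL-33 receptor, at 43.45 and 46.2 CPM. In CD4 T-like cells 5 of 6 were higher and 1 lower, with a median of 0.51 against 0.09, Areg at a ratio of 1.36, Rora at 1.51 and Gata3 at 1.49. In the other T-like cells 3 of 5 were higher and 2 lower, with a median of 0.42 against 0.00, Areg at 1.33 and Rora at 1.56.

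Naive and lymph node homing genes, the programme in which Ccr7 is known, were mostly higher in the knockout T-like cells. In CD8 T-like cells 11 of 13 were higher and 2 lower, with a median of 0.37 against -0.02, where Klf2 led at 201 and 247 CPM, Satb1, a chromatin organiser, had 2.04 (1.85 to 2.26) and Igfbp4 0.525 (0.285 to 0.947). In the other T-like cells 11 of 13 were higher and 2 lower, with a median of 0.32 against 0.00, Klf2 at 1.50 and Il7r, the IL-7 receptor, at 1.57. In Treg-like cells 7 of 8 were higher and 1 lower, with a median of 0.62 against 0.01, Klf2 at 1.43, Il7r at 2.72 (2.21 to 3.38) and Bach2 at 2.93 (1.60 to 5.72), although Ccr7 itself was level there. Bach2 in the knockout had 22 of its 52 UMIs in 1 cell. Within the libraries, 9 of 12 and 10 of 13 list genes were higher in CD8 T-like cells with a Ccr7 UMI than without. The counts were 8 of 11 and 3 of 11 in other T-like cells and 4 of 7 and 0 of 8 in Treg-like cells. Medians were 0.53 and 0.40, 0.23 and -0.19, and 0.11 and -0.66, vector control first. Cells with a UMI were deeper. Macrophage markers were higher in knockout Treg-like and CD8 T-like cells, and their part was not tested.

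The likeness of the 5 genes to each other and to other genes was described over 22 points, 11 classes in each of 2 libraries, as Pearson's r of log2(CPM + 10). Points of 1 library share its depth, so r is a description. Ccl17 and Ccl22 had an r of 0.89, Ccl22 and Ccr7 0.89, Ccl17 and Ccr7 0.76, and Ccr4 and Ccr8 0.92, while each chemokine had a negative r with Ccr4 and Ccr8, between -0.41 and -0.30. Among 12460 genes the most alike to Ccl17 were Tamalin (0.94), Syngr2 (0.94) and Cbfa2t3 (0.94), and to Ccl22 Rogdi (0.99), Mmp25 (0.98) and H2-Eb2 (0.97). Ccr7 was most like Ramp3 (0.93), Relb (0.92) and Tbc1d4 (0.92). For Ccr8 the genes were Penk (0.97), Cpm (0.96) and Sdf4 (0.95), and for Ccr4 Izumo1r (0.95), Ermn (0.94) and Trat1 (0.94), all 3 resting on 42 Ccr4 UMIs.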

How the data were processed

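Single-cell RNA of 2 tumour libraries, 1 for each group, was prepared with 10x Genomics 3′ chemistry per the labels' protocols. The authors deposited raw UMI counts per gene and barcode. Per the file headers, Cell Ranger 8.0.0 produced these tables, and the submitters' processing notes name mm10 and Seurat 3.1.1. All 5 genes and their gene IDs were found in GENCODE vM21, and promoter sequences came from the RefSeq table of GRCm38.p6.

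A barcode was kept if it had 200 or more genes and if mitochondrial UMIs were under 20% of its total. The automatic threshold of Scrublet (scanpy 1.11.5) marked 0 barcodes, so the highest scores were left out at 0.8% for every 1000 barcodes, 221 and 287. A cell's class was the marker list with the highest score, of at least 0.1, a lead of 0.02 and 3 detected markers. No lead was asked between the cDC and mature DC lists, and the stricter lead asked for none there either. This rule was set after the data were seen, and 244 and 276 assigned cells had a lead under 0.05. CD8, CD4, Treg-like and other T-like cells, and the cDC kinds, were split by their own markers. Clusters (2000 variable genes without the 5 genes, 30 components, Leiden) served as the alternative.

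Levels are summed UMIs per 1000000 UMIs (CPM) with exact Poisson intervals. Ratios are knockout over vector control with exact conditional binomial intervals, and shares have Clopper-Pearson intervals, all at 95%. No ratio is given where a library had 3 or fewer UMIs, or for classes under 20 cells. Called genes differed at least 2-fold among genes with at least 20 UMIs over both libraries, with 0.5 added to each count. The intervals and the 2-fold count were run on simulated summed UMIs drawn from a Poisson distribution. That simulation had no extra spread between cells. It therefore could not show how the intervals behave where a few cells hold most of the UMIs. The members and gene lists were chosen with earlier results of these data known. The text names the 5 genes, the 3 genes most like each by Pearson's r among genes with at least 100 UMIs, and from each list the gene with the most UMIs and the 2 with the largest log2 ratio among those with at least 50 UMIs. PCR duplicates were already collapsed by UMI in the deposited counts.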

Additional observations from a re-analysis of the deposited data

Results flagged for a closer look

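Some barcodes entered no comparison of classes and still held UMIs of these genes above the limit that a count of 0 allows. In the 221 and 287 barcodes left out for a high doublet score, Ccl17 was 64.1 CPM in the vector control and 17.9 CPM in the knockout, Ccl22 6.02 and 4.87 CPM, Ccr7 49.6 and 41.0 CPM, and Ccr8 6.32 and 2.31 CPM. In the 448 and 552 kept cells without a class, Ccl17 was 137 and 62.8 CPM, Ccl22 21.4 and 24.0 CPM, Ccr7 43.7 and 55.6 CPM, and Ccr8 3.40 and 5.996 CPM. Ccl17 was lower in the knockout in both sets.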

How the results depend on the processing

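Of 184 recomputed CPM ratios, 161 stayed within the counting interval of the reported ratio. No reported ratio whose interval left out 1 changed its side of 1, but the interval came to hold 1 for Ccl22 and Ccr7 in cDC-like, Ccl22 in phagocyte-like, Ccr7 in other T-like and Ccr8 in CD8 T-like cells under the settings given with those values. Ccr7 in Treg-like cells, reported at 0.985, was 1.67 (1.31 to 2.13) with classes from clusters, and Ccr7 in CD8 T-like cells was 1.15 (1.005 to 1.31) with median-of-ratios size factors. With the mean over cells in place of summed UMIs, the ratios over all kept cells were 0.388 for Ccl17, 0.613 for Ccl22 and 1.20 for Ccr7, and 0.561 for Ccl22 in mature DC-like cells. With classes from clusters, Ccl17 in cDC-like cells was 0.440 and Ccl22 in mature DC-like cells 1.05. With a stricter lead Ccl17 in cDC-like cells was 0.298. Without the 5 highest cells of each library, an alternative chosen after seeing the data, Ccl17 was 0.416 over all kept cells and 0.266 in cDC-like cells, and Ccl22 in mature DC-like cells 0.638. Ccr4 over all kept cells was then 2.23 (0.931 to 5.88) in place of 1.25 (0.651 to 2.45), and both intervals held 1. The 5 highest Ccr4 cells held 55.6% of the 18 vector control UMIs and 20.8% of the 24 knockout UMIs. Ccr8 over all kept cells was 0.984 with high doublet scores kept. The cause of these shifts was not tested.

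The count of genes at least 2-fold apart depends on the floor by construction. With at least 100 UMIs it was 321 over all kept cells, 23 in mature DC-like, 70 in cDC-like, 242 in phagocyte-like, 43 in Treg-like and 122 in CD8 T-like cells. With at least 1 UMI in each library it was 2533, 1812, 1570, 2033, 1636 and 1604, against 997, 359, 422, 648, 448 and 575 as reported. No paired analysis was possible because each group has 1 library. Depth limits Ccr4, and Ccr8 outside Treg-like and CD8 T-like cells.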
